A study of Mus musculus with 24 samples.

Results

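The Egr and Nr4a genes are transcription factor genes that T cells switch on when the antigen receptor is engaged. Members were chosen by name: Egr1, Egr2, Egr3, Nr4a1, Nr4a2 and Nr4a3, with Nab1 and Nab2, which encode partners of the Egr proteins. These 8 genes, of 23366 in the deposited tables, were followed through RNA sequencing of cultured C57BL/6 mouse CD8+ T cells. Cells were sorted as naive (CD62L high, CD44 negative) and activated with anti-CD3 and anti-CD28, 1 µg/ml of each, which stand in for antigen. The 24 libraries form 8 groups of 3. All groups carry Nr3c1 fl/fl, floxed alleles of the glucocorticoid receptor gene. Wild-type (WT) cells lacked the E8i-Cre recombinase, and conditional knockout (cKO) cells carried it, so that Nr3c1 was targeted in CD8+ T cells. Day 3 groups are WT and cKO cells stimulated for 3 days, either untreated (Ctrl) or treated with dexamethasone (Dex) at 10 nM, a drug that activates the glucocorticoid receptor. Day 9 groups are WT cells that were stimulated for 3 days, rested for 3 days (IL2, 5 ng/ml) and stimulated again for 3 days. They were untreated (Ctrl) or received Dex, IL27 (a cytokine, at 25 ng/ml) or the 2 agents together (Dex+IL27). Each library came from 1000 sorted cells. The labels do not say whether the 3 libraries of a group came from separate animals or cultures, and give no age, and the p-values below therefore reflect variation among these libraries that may be technical only.

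Engagement of the receptor activates calcineurin and MAP kinases, which act through NFAT, MEF2, CREB and serum response factor to induce the Egr zinc finger proteins and the Nr4a orphan nuclear receptors within a short time and without new protein synthesis. Egr1 is linked to early activation and proliferation, Egr2 and Egr3 to both clonal expansion and the restraint of T cell responses, and Nr4a1 (Nur77) is widely used as a reporter of receptor signal strength. The Nr4a factors are also known for their part in exhausted CD8+ T cells. Nab1 and Nab2 bind Egr1 and Egr2 and repress or modify their activity, and Nab2 is itself an Egr target. Protein, timing after contact with antibody and signalling were not measured here: the values below are RNA levels after days of stimulation.

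Sequences around the start sites of Egr2 and the Nr4a genes are shown with sites of CREB, serum response factor and Egr proteins marked. Motifs of NFAT and MEF2 were not searched. RefSeq (GRCm38.p6) promoter windows of 300 bases, from 250 bases before to 50 bases after a start site, were found for 6 of the 8 members (not Egr1 or Egr3). The windows of Egr2 (the middle one of 5 listed; chr10:67537619-67537918, plus strand), Nr4a1 (chr15:101266596-101266895, plus strand), Nr4a2 (chr2:57123954-57124253, minus strand) and Nr4a3 (chr4:48045055-48045354, plus strand) are printed 5′ to 3′ on the gene's strand; the last 50 bases lie downstream of the start site, in the transcribed part of the gene. Capitals mark TGACG or its reverse complement, the core of the cAMP response element that CREB and ATF proteins bind, the CArG box bound by serum response factor, and GCGGGGGCG or its reverse complement, an Egr site.
Egr2: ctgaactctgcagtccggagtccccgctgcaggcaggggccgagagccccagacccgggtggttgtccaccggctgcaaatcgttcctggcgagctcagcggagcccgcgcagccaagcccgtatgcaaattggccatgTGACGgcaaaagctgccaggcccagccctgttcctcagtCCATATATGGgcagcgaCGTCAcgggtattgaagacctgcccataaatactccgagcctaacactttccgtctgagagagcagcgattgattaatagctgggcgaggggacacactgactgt
Nr4a1: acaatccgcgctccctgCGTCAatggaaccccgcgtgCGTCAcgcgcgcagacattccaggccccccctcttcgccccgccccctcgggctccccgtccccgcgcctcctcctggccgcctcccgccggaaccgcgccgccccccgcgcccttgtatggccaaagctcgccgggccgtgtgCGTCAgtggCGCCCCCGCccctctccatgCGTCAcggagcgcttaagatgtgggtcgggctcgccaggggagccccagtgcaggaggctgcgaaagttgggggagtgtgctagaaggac
Nr4a2: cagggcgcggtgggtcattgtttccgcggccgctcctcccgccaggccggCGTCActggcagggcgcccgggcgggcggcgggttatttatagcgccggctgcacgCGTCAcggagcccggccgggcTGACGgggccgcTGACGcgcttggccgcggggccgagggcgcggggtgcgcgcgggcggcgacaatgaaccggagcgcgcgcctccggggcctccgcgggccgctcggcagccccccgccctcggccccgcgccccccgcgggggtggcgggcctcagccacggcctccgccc
Nr4a3: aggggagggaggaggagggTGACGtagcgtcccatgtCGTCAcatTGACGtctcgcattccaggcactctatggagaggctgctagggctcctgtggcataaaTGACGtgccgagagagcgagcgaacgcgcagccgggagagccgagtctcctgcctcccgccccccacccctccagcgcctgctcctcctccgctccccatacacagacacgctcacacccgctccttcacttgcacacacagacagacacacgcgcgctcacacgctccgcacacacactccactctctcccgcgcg

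TGACG stood at 4 places in each of the 3 Nr4a windows and at 2 in the Egr2 window, with no overlap between marked motifs. At least 1 such place was present in 20.8% of the 32851 promoter windows of the genome, and 4 or more in 0.231% (76 windows). The limit of 4 was chosen after the members' counts were seen. G and C made up 64.7% to 81.7% of the Nr4a windows, and these shares were not matched for that content. The CArG box occurred once, in Egr2, against 1.63% of all windows. GCGGGGGCG was found in Nr4a1 and Nab1 (2.91% of all windows), and GCGTGGGCG at 2 places in Nab1 (0.612%). The full cAMP response element TGACGTCA (1.79% of windows), the AP-1 site TGANTCA (7.81%) and the Nr4a response element AAAGGTCA (1.51%) were searched on both strands and were not among the letters of any member window. The Nab2 window held none of the 7 motifs searched. A match describes letters and not binding.

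Library depth ran from 14221900 to 19018400 estimated counts. The targeted gene Nr3c1 was at 2.66 ± 0.28 FPKM (fragments per kilobase of transcript, scaled to library depth; mean ± SD, n = 3) in WT Ctrl and 3.21 ± 0.16 in WT Dex, against 1.19 ± 0.10 in cKO Ctrl and 1.02 ± 0.25 in cKO Dex, so some Nr3c1 signal stayed in the knockout libraries. The labelled cell type was checked against its markers: the 5 CD8 T cell genes summed to 777.5 to 1234 FPKM in every library. The myeloid list (5 of 5 found) summed to at most 2.84 FPKM and the erythroid and platelet list (4 of 4) to at most 7.95. The B cell list (4 of 4) summed to 5.19 to 17.6 FPKM, almost all of it Cd79b. The CD4 T cell list (4 of 4) summed to 6.76 to 13.4 FPKM in day 9 Ctrl and 3.40 to 6.69 elsewhere; Cd4 itself was at most 1 FPKM in every library, and Cd40lg held most of the day 9 Ctrl sum. The NK cell list (4 of 4) summed to 0.19 to 13.1 FPKM at day 3 and 88.8 to 3448 at day 9, nearly all of it Gzma, which CD8 T cells also express, while Ncr1 was at most 0.07 FPKM. The ribosomal RNA precursor Rn45s took 9.11% of counts in day 9 Ctrl and 14.1% to 16% in the other day 9 groups. In these bulk libraries fewer cells of a kind and less RNA per cell cannot be told apart.

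Levels are FPKM as deposited, a scale per transcript length on which genes can be compared, with group means ± SD over 3 libraries. Each change is a log2 ratio of group means fitted by edgeR to counts, with its SE. Nr4a1 was the most abundant member, at 85.3 ± 4.9 FPKM in day 3 WT Ctrl, and Egr3 the least, at 1.09 ± 0.51 there. From the highest to the lowest group mean, Egr3 spanned 26.1-fold, Nr4a3 22.2-fold, Egr2 13.1-fold, Nr4a1 11-fold and Egr1 4.04-fold, whereas Nr4a2 spanned 1.98-fold, Nab2 1.67-fold and Nab1 1.53-fold. The Dex+IL27 group at day 9 had the lowest mean for 7 of the 8 members, the exception being Nr4a2. Only for Egr1 and Egr3 was it free of overlap with the next group. For Nr4a1 (7.76 FPKM against 7.84 with IL27) and Nab2 (4.21 against 4.27) the lowest means were nearly equal. How many of all genes had this group lowest was not counted.

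**Figure D1:**
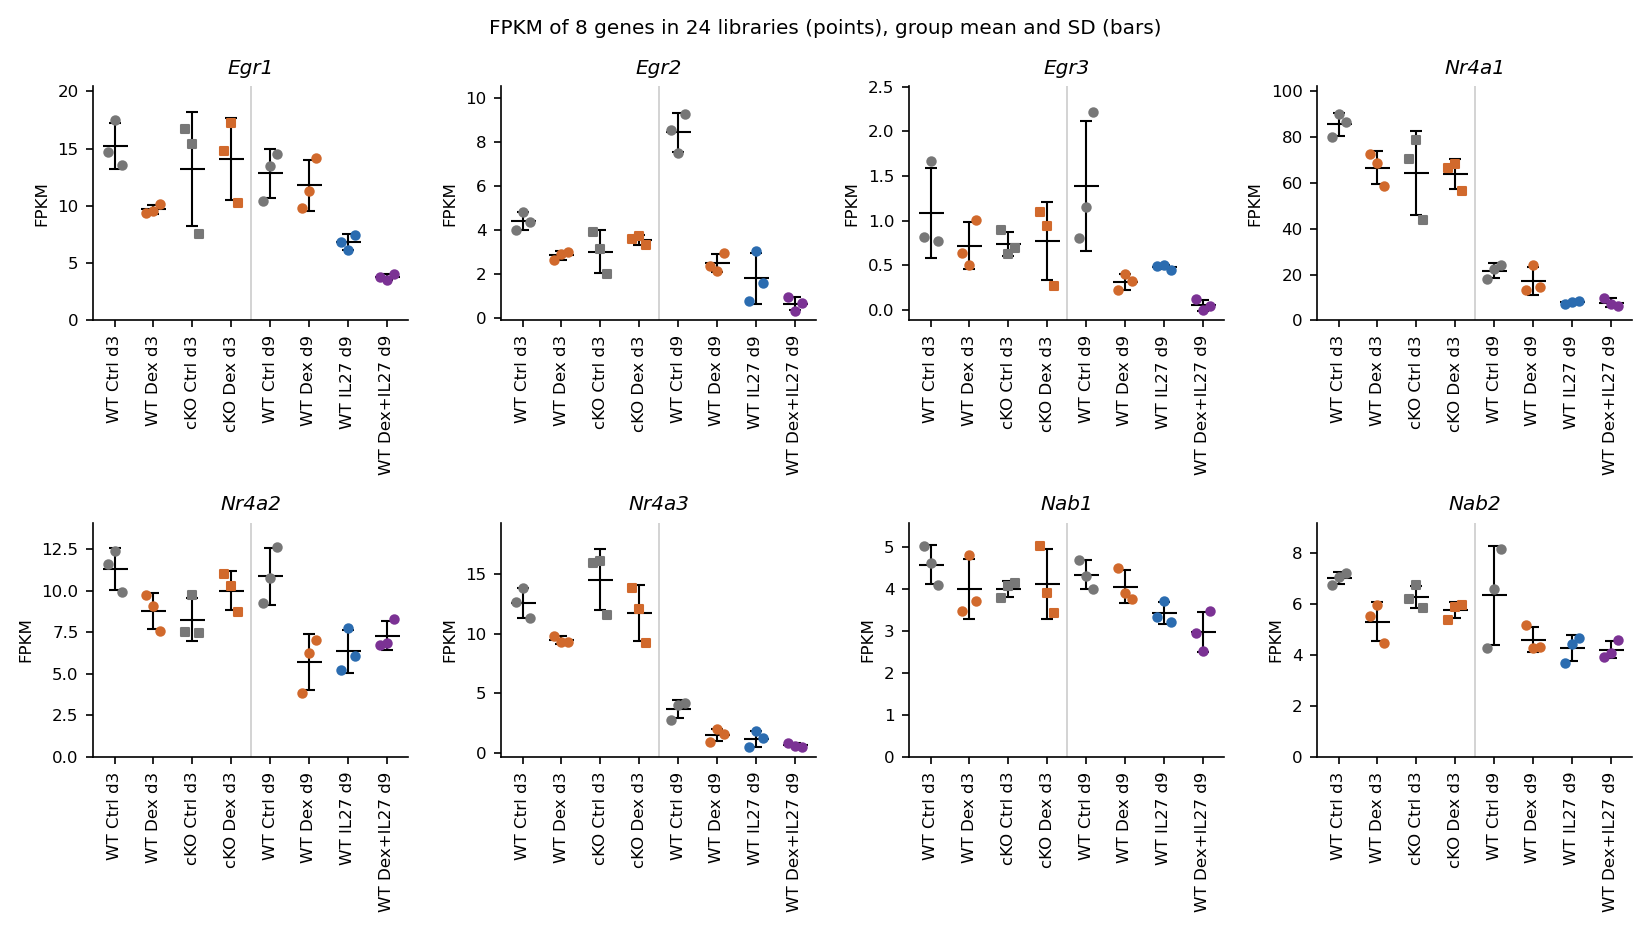
FPKM of the 8 genes (one panel each, own vertical scale) in the 24 libraries. Points are libraries (circles WT, squares cKO), horizontal bars are group means and whiskers SD over 3 libraries; the vertical line parts day 3 from day 9. Egr2 was at 7.52 to 9.27 FPKM in day 9 Ctrl and at no more than 3.03 in the other day 9 groups, and Nr4a1 was at 43.8 to 89.7 at day 3 and 6.43 to 24.3 at day 9.

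Egr1 stood at 14.7, 17.5 and 13.6 FPKM in the WT Ctrl libraries of day 3 and at 9.38, 9.54 and 10.1 in WT Dex. In cKO cells it was 16.7, 15.4 and 7.55 FPKM in Ctrl and 14.8, 17.2 and 10.2 in Dex, so replicate 6 was the low library in both cKO groups. At day 9 it read 10.5, 13.5 and 14.6 FPKM in Ctrl and 9.83, 11.3 and 14.2 in Dex, which overlap. IL27 libraries held 6.87, 6.12 and 7.49 FPKM and Dex+IL27 libraries 3.78, 3.51 and 4.03. In the order of means, the 6 groups from day 3 WT Ctrl down to day 3 WT Dex overlapped with their neighbours, and then IL27 and Dex+IL27 each lay apart below the group before.

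Egr2 followed another order. Its highest level was in day 9 Ctrl, at 8.57, 7.52 and 9.27 FPKM, above the 4.0, 4.83 and 4.37 of day 3 WT Ctrl with no overlap. Day 3 WT Dex libraries held 2.63, 2.93 and 2.98 FPKM. The cKO libraries read 3.93, 3.13 and 2.01 FPKM in Ctrl and 3.61, 3.74 and 3.32 in Dex, all below WT Ctrl. At day 9 it was 2.37, 2.15 and 2.97 FPKM with Dex, 0.78, 3.03 and 1.57 with IL27, and 0.94, 0.33 and 0.66 with Dex+IL27. From the third group mean down, each group overlapped with its neighbour, and the IL27 libraries spread the most, with replicate 2 the high one.

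Egr3 was the lowest member, with few counts. Day 3 libraries ranged from 0.27 FPKM (cKO Dex replicate 6) to 1.67 (WT Ctrl replicate 2), and the 4 day 3 groups overlapped. Day 9 Ctrl read 0.81, 1.15 and 2.21 FPKM. Dex gave 0.22, 0.40 and 0.32, IL27 gave 0.49, 0.50 and 0.45, and Dex+IL27 gave 0.12, 0.00 and 0.04. The 4 day 9 groups did not overlap with one another, in the order Ctrl, IL27, Dex, Dex+IL27. In counts, the 3 Dex+IL27 libraries together held 4, against 106 in Ctrl, 36 in IL27 and 21 in Dex; Ctrl exceeded Dex+IL27 24.5-fold with a 95% exact counting interval from 9.30 to 91.7, which covers counting error only. At day 9, 6 of 12 libraries reached the count minimum of the low-count filter for Egr3, all of them Ctrl or IL27. Day 9 tests of Egr3 with Dex or Dex+IL27 thus hold a group that fell short of the minimum.

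Nr4a1 separated the days. It read 80.0, 89.7 and 86.3 FPKM in day 3 WT Ctrl and 72.3, 68.6 and 58.5 in WT Dex. In cKO cells it was 70.1, 78.5 and 43.8 FPKM in Ctrl, with replicate 6 low, and 66.2, 68.3 and 56.1 in Dex. Day 9 Ctrl held 18, 22.6 and 24.3 FPKM, below every day 3 library. Dex libraries read 13.1, 24.2 and 14.4 FPKM, with replicate 2 within the Ctrl range and the other two below it. IL27 libraries (7.03, 8.11 and 8.39 FPKM) and Dex+IL27 libraries (9.87, 6.99 and 6.43) overlapped with each other and lay below the rest. Day and culture history run together in the labels, and so does the leading letter of the sample titles, so the step between days was not tested and these cannot be told apart.

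Nr4a3 showed the same step. Day 3 WT Ctrl read 12.7, 13.8 and 11.3 FPKM, WT Dex 9.85, 9.33 and 9.29, cKO Ctrl 15.9, 16.1 and 11.6, and cKO Dex 13.9, 12.1 and 9.21. Day 9 Ctrl read 2.79, 4.05 and 4.22 FPKM. Dex gave 0.94, 2.02 and 1.56, IL27 gave 0.49, 1.87 and 1.22, and Dex+IL27 gave 0.82, 0.62 and 0.52. Every treated library of day 9 lay below every day 9 Ctrl library, while the 3 treated groups overlapped with their neighbours in the order.

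Nr4a2, by contrast, was at like levels on both days: 11.6, 12.4 and 9.93 FPKM in day 3 WT Ctrl and 9.23, 10.7 and 12.6 in day 9 Ctrl. It read 9.71, 9.08 and 7.60 FPKM in day 3 WT Dex, 7.51, 9.74 and 7.47 in cKO Ctrl, and 11.0, 10.3 and 8.70 in cKO Dex. At day 9 it was 3.84, 6.22 and 7.04 FPKM with Dex, 5.24, 7.74 and 6.04 with IL27, and 6.74, 6.86 and 8.29 with Dex+IL27. No neighbouring groups in its order of means were free of overlap, although the 9 treated libraries of day 9 all lay below the 3 Ctrl libraries.

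The corepressor genes varied least. Nab1 ranged from 2.52 FPKM (a Dex+IL27 library) to 5.03 (a cKO Dex library) over all 24 libraries; its Ctrl libraries held 5.02, 4.62 and 4.09 at day 3 and 4.69, 4.32 and 4.01 at day 9, and only the step from cKO Ctrl to IL27 in the order of group means was free of overlap. Nab2 was at 6.76, 7.08 and 7.23 FPKM in day 3 WT Ctrl and at 5.54, 5.97 and 4.46 in WT Dex. Day 9 Ctrl libraries of Nab2 spread from 4.29 through 6.61 to 8.16 FPKM, which took in all 9 treated libraries but those below 4.29.

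The first comparison asks what Dex did to these genes in receptor-competent cells at day 3. All 8 members had lower estimates with Dex, by log2 changes of -0.64 to -0.18, and 1 passed the test, Egr2, which fell by 0.61 ± 0.18 on the log2 scale (1.53-fold; edgeR adjusted p = 0.0411). Over all 11967 genes tested, 9.43% passed in either direction and 4.5% downward. Egr1 (log2 change -0.64 ± 0.22, edgeR adjusted p = 0.0765) and Nab2 (-0.39 ± 0.12, edgeR adjusted p = 0.0558) lay just outside the threshold of 0.05. The estimates were -0.35 ± 0.14 for Nr4a1, -0.35 ± 0.13 for Nr4a2, -0.40 ± 0.15 for Nr4a3, -0.59 ± 0.48 for Egr3 and -0.18 ± 0.14 for Nab1, with edgeR adjusted p from 0.102 to 0.515. The FPKM ranges of the groups did not overlap for 6 members (not Egr3 or Nab1), which 29.5% of genes tested also showed. The members' median log2 change was -0.39, against 0.01 for all genes. The Egr2 call was lost with any 1 of the 6 WT libraries left out, at log2 changes of -0.68 to -0.54, and under limma and the fit of all 24 libraries; without the low-count filter and with only these 2 groups in the fit, 5 and 4 members passed.

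In cKO cells, the same comparison asks whether the Dex effect needs the receptor. No member passed (0 of 8 by edgeR and by DESeq2), as 0% of all genes tested did, and 2 members had an unadjusted p under 0.05 (3.33% of genes tested). The estimates went both ways, from -0.31 ± 0.14 (95% interval -0.61 to -0.01) for Nr4a3 to 0.28 ± 0.13 (0.01 to 0.55) for Nr4a2. Egr2 had a log2 change of 0.23 with an interval of -0.15 to 0.62, Egr1 of 0.09 (-0.36 to 0.54) and Nr4a1 of -0.01 (-0.32 to 0.29). Every member's groups overlapped (7.54% of genes tested had groups that did not).

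The difference between the WT and cKO Dex effects was tested directly. It was negative for all 8 members, from -0.85 ± 0.26 for Egr2 to -0.09 ± 0.21 for Nr4a3, and passed for none (2.95% of genes tested passed). Egr2 (edgeR adjusted p = 0.0914) and Nr4a2 (-0.63 ± 0.18, edgeR adjusted p = 0.0734) came closest, and with Egr1 (-0.73 ± 0.30) they made 3 members with an unadjusted p under 0.05 (15.7% of genes tested). DESeq2 called 1 member, Nr4a2, and edgeR without the low-count filter 4. Nr4a2 also passed without any 1 of WT Ctrl replicate 3, cKO Ctrl replicate 5 and cKO Dex replicate 6, at log2 differences of -0.76 to -0.71, and Egr2 passed without cKO Ctrl replicate 4, at -1.08. Other removals made the differences smaller. Over the 12 removals they ran from -0.76 to -0.53 for Nr4a2, -1.08 to -0.62 for Egr2, -0.94 to -0.45 for Egr1 and -0.50 to -0.12 for Nr4a1.

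Between genotypes, untreated cKO cells had lower estimates than untreated WT cells for 7 of 8 members, and none passed by edgeR (2.36% of genes tested did; 3 members had an unadjusted p under 0.05, as had 17.1% of genes, and DESeq2 called 1, Nr4a2). Egr2 differed by -0.53 ± 0.18, Nr4a2 by -0.45 ± 0.13 (edgeR adjusted p = 0.0703) and Nr4a1 by -0.40 ± 0.14, and the groups of these 3 and of Nab2 did not overlap in FPKM (22.2% of genes tested). In counts scaled to library depth the Nab2 groups did overlap. Nr4a3 alone had a positive estimate, 0.21 ± 0.14. The Nr4a2 difference passed without WT Ctrl replicate 3 (-0.53) or cKO Ctrl replicate 5 (-0.59). With a library left out, estimates ran from -0.59 to -0.37 for Nr4a2 and -0.77 to -0.31 for Egr2. For Nr4a1 they ran from -0.58 to -0.19, and for Egr1 from -0.40 to 0.08. In cKO Ctrl, replicate 6 was the lowest library for Egr2 (2.01 FPKM) and Nr4a1 (43.8 FPKM). Under Dex, none of the 8 passed between genotypes by edgeR or DESeq2 (6.9% of genes tested by edgeR; 1 member with an unadjusted p under 0.05, against 19.5% of genes). Egr1 was the largest of these, at 0.54 ± 0.22 higher in cKO, and without cKO Dex replicate 6 it passed at 0.72, together with Nr4a3 at 0.45. Both of these comparisons share libraries with the Dex comparisons above.

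**Figure D2:**
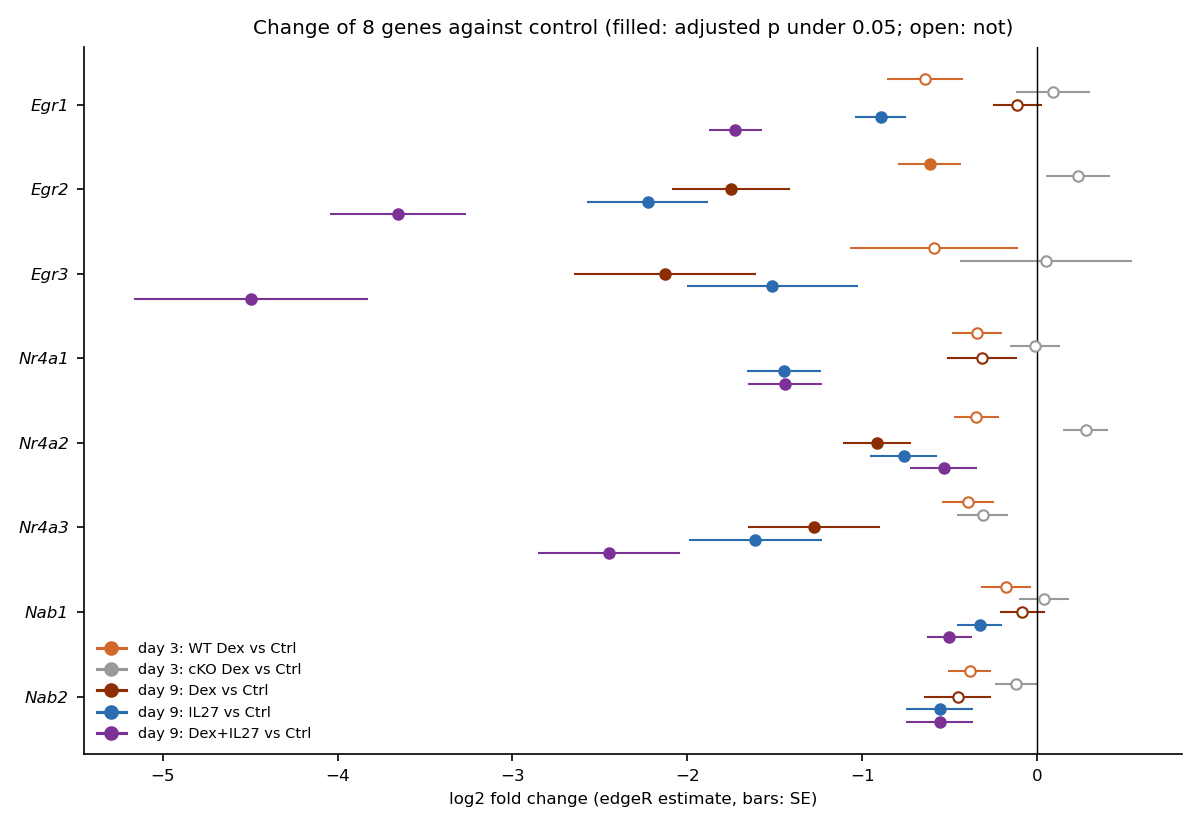
log2 fold change of each of the 8 genes against its own Ctrl group, from edgeR on counts (horizontal axis; bars are SE), in 5 comparisons told apart by colour; filled points have an adjusted p under 0.05. The 3 day 9 comparisons share 1 Ctrl group. Every called point lies left of 0, the farthest being Egr3 (-4.50) and Egr2 (-3.65) with Dex+IL27.

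At day 9, Dex alone lowered 4 members: Egr2, Egr3, Nr4a2 and Nr4a3. For Egr3, no Dex library reached the count minimum of the low-count filter, which kept the gene only through the Ctrl and IL27 groups. Ctrl is the high group of this comparison, with 106 Egr3 counts against 21 with Dex, and the tallies below include Egr3. Egr2 fell by 1.75 ± 0.34 on the log2 scale (3.36-fold; edgeR adjusted p = 4.64e-04) and Egr3, its close paralog, by 2.13 ± 0.52 (edgeR adjusted p = 0.00288). Nr4a3 fell by 1.28 ± 0.38 (edgeR adjusted p = 0.00954) and Nr4a2 by 0.92 ± 0.19 (1.89-fold; edgeR adjusted p = 9.8e-04). The share of all 12320 genes tested that passed was 55.6%, with 27.4% downward, and the share with groups that did not overlap was 64.4%, so 4 of 8 called and 4 of 8 free of overlap are read against a large background. Egr1 had a log2 change of -0.11 with a 95% interval of -0.41 to 0.19, Nr4a1 of -0.31 (-0.75 to 0.12), Nab1 of -0.08 (-0.36 to 0.19) and Nab2 of -0.45 (-0.86 to -0.04; edgeR adjusted p = 0.0572). The members' median was -0.69, against 0.03 for all genes. Nab2 passed in 6 of 17 alternatives: with DESeq2 size factors, without the low-count filter and by the DESeq2 Wald test (-0.47 in each), with all 24 libraries in the fit (-0.42), by library totals (-0.50) and without Ctrl replicate 1 (-0.68). Nr4a1 passed in 2 of 17, without the low-count filter (-0.33) and without Dex replicate 2 (-0.65).

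IL27 alone lowered all 8 members, where 28.1% of genes tested fell and 57.4% passed in either direction. Egr2 fell by 2.23 ± 0.35 on the log2 scale (4.68-fold; edgeR adjusted p = 6.27e-05), Nr4a3 by 1.61 ± 0.38 (edgeR adjusted p = 0.00211), Egr3 by 1.51 ± 0.49 (edgeR adjusted p = 0.0153) and the receptor signal reporter Nr4a1 by 1.45 ± 0.21 (2.73-fold; edgeR adjusted p = 3.4e-05). Egr1 fell by 0.89 ± 0.15 and Nr4a2 by 0.76 ± 0.19, each under 2-fold. The corepressor genes moved least, Nab2 by -0.56 ± 0.19 and Nab1 by -0.33 ± 0.13. The median was -1.17, against 0.04 for all genes. All but Nab2 had groups that did not overlap (63.8% of genes tested). Without Ctrl replicate 3, Egr3 (-1.0) and Nab2 (-0.33) no longer passed; Egr3 was also lost without IL27 replicate 3 (-1.48), Nab2 without Ctrl replicate 2 (-0.53) or IL27 replicate 1 (-0.47), and Nab1 without Ctrl replicate 1 or 2 or IL27 replicate 1 or 3 (-0.33 to -0.27). Nab2 was lost too by limma on FPKM plus 1 without a filter (-0.45) and with only the 2 groups (-0.55), and Nab1 with all 24 libraries in the fit (-0.29).

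With Dex and IL27 together, all 8 members were again lower than in Ctrl, and 5 of them by more than with either agent in their point estimates (Egr1, Egr2, Egr3, Nr4a3 and Nab1). Egr3 fell by 4.50 ± 0.67 and Egr2 by 3.65 ± 0.39 on the log2 scale, the latter 12.6-fold (edgeR adjusted p = 8.21e-07). The Egr3 value rests on 4 counts in the Dex+IL27 group, where no library reached the count minimum of the low-count filter. It ran from -5.71 to -3.98 with a library left out and was -1.14 by limma on FPKM plus 1, and it passed in each. Nr4a3 fell by 2.45 ± 0.41 (5.46-fold), Egr1 by 1.73 ± 0.15 (3.31-fold; edgeR adjusted p = 1.11e-07) and Nr4a1 by 1.44 ± 0.21 (2.71-fold). Nr4a2 moved by -0.53 ± 0.19, Nab1 by -0.50 ± 0.13 and Nab2 by -0.56 ± 0.19. Of all genes tested 32.6% fell and 66.9% passed, and 70.1% had groups that did not overlap, against 7 of the 8 members. The median was -1.58, against 0.05. Nr4a2 no longer passed without Ctrl replicate 3 (-0.42) or without Dex+IL27 replicate 1 or 2 (-0.49 to -0.48), and Nab2 without Ctrl replicate 2 or 3 or Dex+IL27 replicate 1 or 2 (-0.53 to -0.34). Both were also lost by limma on FPKM plus 1 without a filter (-0.51 and -0.46).

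Each agent added to the other was tested too. IL27 added to Dex lowered 6 members (17.1% of genes tested fell, 32% passed). Egr3 is counted among them, although it was kept by the low-count filter only through the Ctrl and IL27 groups. No Dex or Dex+IL27 library reached the count minimum for Egr3 (21 and 4 counts in total). Egr1 fell by 1.61 ± 0.15 on the log2 scale (3.06-fold; edgeR adjusted p = 4.85e-06). The changes were -1.91 ± 0.40 for Egr2, -2.37 ± 0.78 for Egr3, -1.12 ± 0.21 for Nr4a1 (edgeR adjusted p = 0.00116), -1.17 ± 0.42 for Nr4a3 and -0.42 ± 0.13 for Nab1. Nr4a2 had an estimate of 0.38 with a 95% interval of -0.04 to 0.80, and Nab2 of -0.10 (-0.52 to 0.31). The 6 called members were those without overlap (44.6% of genes tested). Between 3 and 5 members passed when a library was left out: Nr4a3 was lost without Dex replicate 2 or 3 or any Dex+IL27 library (-1.37 to -0.89), Egr3 without Dex replicate 2 or 3 or Dex+IL27 replicate 2 or 3 (-2.37 to -1.85), and Nab1 without Dex replicate 1 or 2 or Dex+IL27 replicate 1 or 2 (-0.43 to -0.31). By limma on FPKM plus 1, with or without the filter, Egr3 (-0.32) and Nr4a3 (-0.58) did not pass, nor did Nr4a3 on FPKM plus 0.1 (-1.05). Nr4a2 passed without the low-count filter (0.39).

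Dex added to IL27 lowered the 3 Egr genes, and the other 5 members did not pass (14.3% of genes tested fell, 26.1% passed). The count of 3 includes Egr3, which the low-count filter kept only through the Ctrl and IL27 groups. IL27 is the high group of this comparison, with 36 Egr3 counts against 4 with Dex+IL27, where no library reached the count minimum. Egr1 changed by -0.83 ± 0.15 (1.78-fold lower; edgeR adjusted p = 0.0013), Egr2 by -1.43 ± 0.41 (edgeR adjusted p = 0.0179) and Egr3 by -2.98 ± 0.73 (edgeR adjusted p = 0.00797). The Nr4a1 estimate was 0.01, with a 95% interval of -0.45 to 0.47, Nr4a2 was 0.23 (-0.19 to 0.64), Nr4a3 was -0.84 (-1.75 to 0.07), Nab1 was -0.17 (-0.45 to 0.11) and Nab2 was 0.00 (-0.42 to 0.42). Only Egr1 and Egr3 were free of overlap (36.7% of genes tested). Egr2 no longer passed without IL27 replicate 2, its high library (-0.83), or without Dex+IL27 replicate 2 (-1.12) or 3 (-1.44), nor with only these 2 groups in the fit (-1.43). By limma on FPKM plus 1 without a filter neither Egr2 (-0.70) nor Egr3 (-0.49) passed. Nr4a3 passed without IL27 replicate 1 (-1.21).

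Whether the combined change departed from the sum of the single changes on the log2 scale was tested as the Dex by IL27 interaction, which 28.5% of genes tested passed (14.7% downward, 13.7% upward). Egr1 was lower with both agents than the sum of their single changes, by -0.72 ± 0.21 (edgeR adjusted p = 0.0187). Nr4a2 was higher than that sum, by 1.15 ± 0.27 (edgeR adjusted p = 0.00651): its changes were -0.92 with Dex, -0.76 with IL27 and -0.53 with both. The other 6 did not pass, with estimates from -0.86 ± 0.91 for Egr3 to 0.45 ± 0.27 for Nab2; for Egr2 the 95% interval ran from -0.82 to 1.46. The Egr1 difference no longer passed without Dex replicate 3 (-0.57) or IL27 replicate 3 (-0.65) or with all 24 libraries in the fit (-0.77), while the Nr4a2 difference passed under every alternative run. Nr4a1 passed without Dex replicate 2 (0.66) and Nab2 without Ctrl replicate 1 (0.68).

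The Dex change at day 9 minus that at day 3 in WT cells passed for 1 member (39.6% of genes tested passed, 19.2% downward). Egr2 fell more at day 9, by -1.10 ± 0.40 (edgeR adjusted p = 0.0327), and this was lost without 8 of the 12 libraries in turn, at -1.09 to -1.0. The Egr2 means with Dex were 2.85 FPKM at day 3 and 2.50 at day 9, against WT Ctrl means of 4.4 and 8.45. The part of the Ctrl level in this difference was not tested, and day runs together with culture history and title letter. Egr3 (-1.51 ± 0.73), Nr4a3 (-0.85 ± 0.36) and Nr4a2 (-0.54 ± 0.25) had negative estimates and Egr1 a positive one (0.56 ± 0.29), with edgeR adjusted p from 0.0684 to 0.131. Nr4a1 was 0.06 (95% interval -0.49 to 0.62). Nr4a3 passed without day 9 Ctrl replicate 1 (-1.01) or Dex replicate 2 (-1.12), and Nr4a2 without Dex replicate 3 (-0.72).

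The make-up of each family also differed between groups, given here as shares of its summed FPKM with no test. Egr1 held 73.2% to 77.2% of the Egr sum in the 4 day 3 groups. In day 9 Ctrl it held 56.5 ± 4.1% (SD, n = 3), with Egr2 at 37.6 ± 4.9%, and this was the only group whose Egr2 share was above 33% in every library. With Dex the Egr1 share was 80.7 ± 1.3%, with IL27 75.5 ± 10.9% and with Dex+IL27 84.9 ± 6.7%, as the summed level went from 22.7 FPKM in Ctrl to 14.6, 9.10 and 4.47. Nr4a1 held 73.3% to 78.4% of the Nr4a sum at day 3, 59.8 ± 0.7% in day 9 Ctrl, 70.2 ± 6.6% with Dex and 51.5 ± 5.0% with IL27. Nr4a2 took 9.75% to 11.7% of it at day 3 and 30.0 ± 1.1% in day 9 Ctrl. With Dex its share was lower, 23.75 ± 6.05%. It was 41.1 ± 2.5% with IL27 and 46.8 ± 7.9% with Dex+IL27, the latter beside 49.0 ± 7.2% for Nr4a1. These 2 shares differed by less than their SDs, and in summed counts, which ignore gene length, the 3 Dex+IL27 libraries held 1183 for Nr4a2 and 984 for Nr4a1. The Nr4a sum was 109.2 ± 6.0 FPKM in day 3 WT Ctrl and 36.2 ± 5.6 in day 9 Ctrl. It was 24.4 ± 7.4 with Dex, 15.4 ± 2.5 with IL27 and 15.7 ± 1.5 with Dex+IL27.

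**Figure D3:**
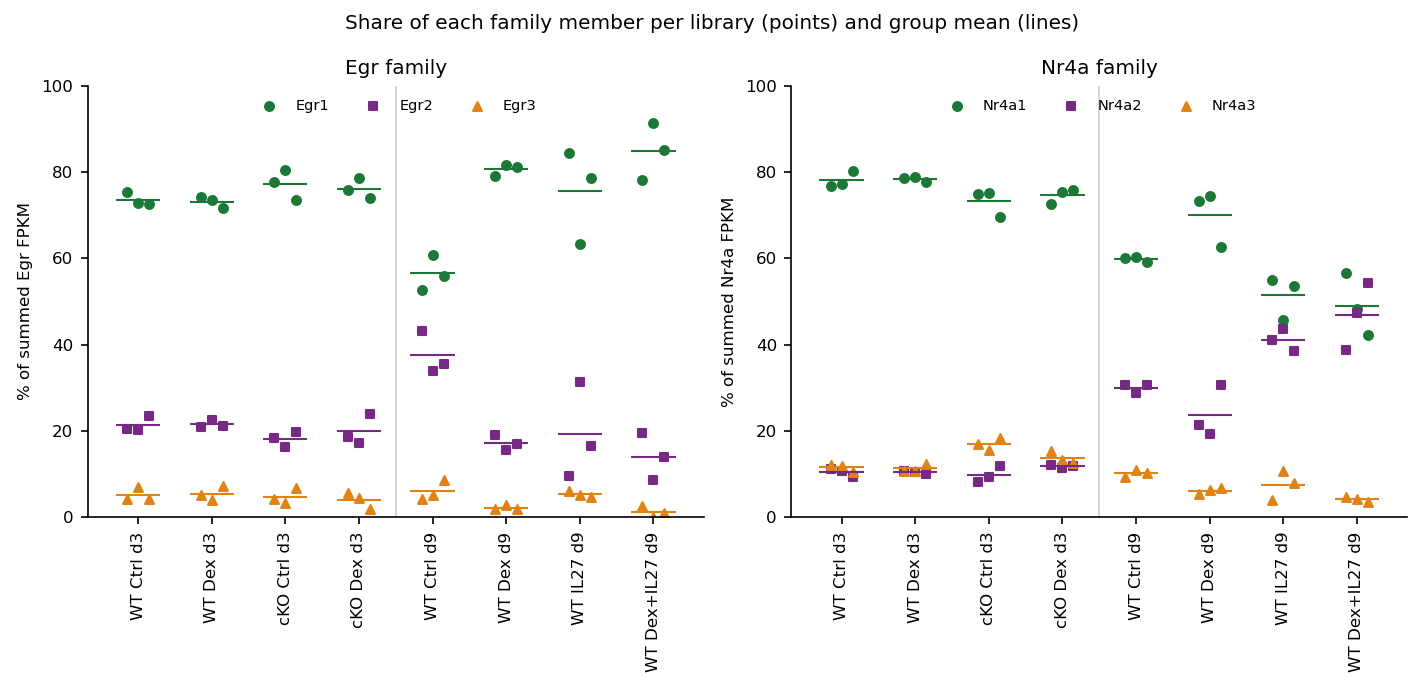
Share of each gene in the summed FPKM of its family (vertical axis, percent) in every library; left the Egr family, right the Nr4a family. Points are libraries and horizontal lines group means. The Egr2 share was 33.9% to 43.2% in day 9 Ctrl, and Nr4a2 and Nr4a1 met near 47% and 49% in the Dex+IL27 group.

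The rest of the pathway was read from fixed lists, which were drawn up with results of these data known. Of the 16 genes of the receptor complex and its proximal kinases, 2 rose and 7 fell with Dex in WT cells at day 3 (median -0.11, all genes 0.01). Over all genes tested in that comparison, 4.93% rose and 4.5% fell. The adaptor genes Lcp2 (SLP-76) and Lat changed by -0.47 ± 0.06 and -0.39 ± 0.05. At day 9, 55.6% of all genes tested passed with Dex, 57.4% with IL27 and 66.9% with both, and the medians of all genes were 0.03, 0.04 and 0.05. The receptor list had 7 up and 4 down with Dex, 8 up and 4 down with IL27 and 8 up and 4 down with both (medians 0.17, 0.26 and 0.19), with Lcp2 down by 0.99 ± 0.09 and Plcg1, the phospholipase C gene, up by 1.23 ± 0.14 under both agents. The calcineurin, NFAT, MEF2 and CREB list (13 tested) had 3 up and 1 down with Dex at day 9, 4 up and 2 down with IL27 and 9 up and 2 down with both (medians 0.17, 0.20 and 0.47); with both, Nfatc3 rose by 1.42 ± 0.13 and Crem, whose product can repress cAMP response elements, fell by 0.83 ± 0.10. At day 9 the MAP kinase and serum response factor list (12 tested) had 4 up and 3 down with Dex, 3 up and 1 down with IL27, and 5 up and 2 down with both (medians 0.05, 0.16 and 0.17).

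Other early genes of receptor stimulation, 23 tested at day 9, were split with single agents: 6 up and 8 down with Dex (median -0.19) and 5 up and 10 down with IL27 (median -0.21). With both agents it was 2 up and 13 down (median -0.71, all genes 0.05), where 32.6% of all genes fell and 66.9% passed. Myc, which drives growth, went from 270.7 to 118.9 FPKM (log2 change -1.15 ± 0.11) and Irf4, a graded target of receptor signal, from 58.1 to 23.9 (-1.25 ± 0.15). Ier3 fell by 1.03 ± 0.10. The phosphatase gene Dusp2 was among the genes that rose, by 2.54 ± 0.32. With Dex in WT cells at day 3 the list had 5 up and 5 down among 24 (median 0.02, all genes 0.01). In that comparison 4.93% of all genes tested rose and 4.5% fell. Tagap was down by 0.72 ± 0.10, Jun down by 0.67 ± 0.11, Fosl2 up by 0.69 ± 0.10 and Cd69 up by 0.34 ± 0.07.

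Genes tied to Egr2 and Egr3 in T cells (15 tested at day 9) were 10 up and 3 down with Dex, 8 up and 4 down with IL27 and 9 up and 5 down with both, with medians of 0.66, 0.47 and 0.77. Of all genes tested 55.6%, 57.4% and 66.9% passed in these comparisons, with medians of 0.03, 0.04 and 0.05. Under both agents Ndrg1, an anergy factor, rose from 10.9 to 108.3 FPKM (log2 change 3.36 ± 0.17), the inhibitory receptor gene Lag3 from 75.7 to 319.0 (2.11 ± 0.10) and the ubiquitin ligase gene Cblb from 14.9 to 36.7 (1.34 ± 0.07), in the groups where Egr2 and Egr3 were lowest. The chemokine gene Ccl1 lay far below: 25.5 to 39.8 FPKM in the Ctrl libraries and 0 in all 3 Dex+IL27 libraries. Genes tied to Nr4a factors in dysfunctional T cells (9 tested) were 5 up and 1 down with Dex, 3 up and 3 down with IL27 and 6 up and 2 down with both (medians 0.54, -0.15 and 0.55); under both agents the checkpoint receptor gene Tigit rose by 1.77 ± 0.08 and Entpd1 by 1.94 ± 0.12. The heat shock and handling list (8 tested) had 1 up and 3 down with Dex, 2 up and 3 down with IL27 and 2 up and 3 down with both at day 9 (medians 0.21, 0.28 and -0.55); Hspa8 fell by 0.70 ± 0.04 and Zfp36 rose by 1.70 ± 0.15 with both. The part of handling in the members' values was not tested.

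**Figure D4:**
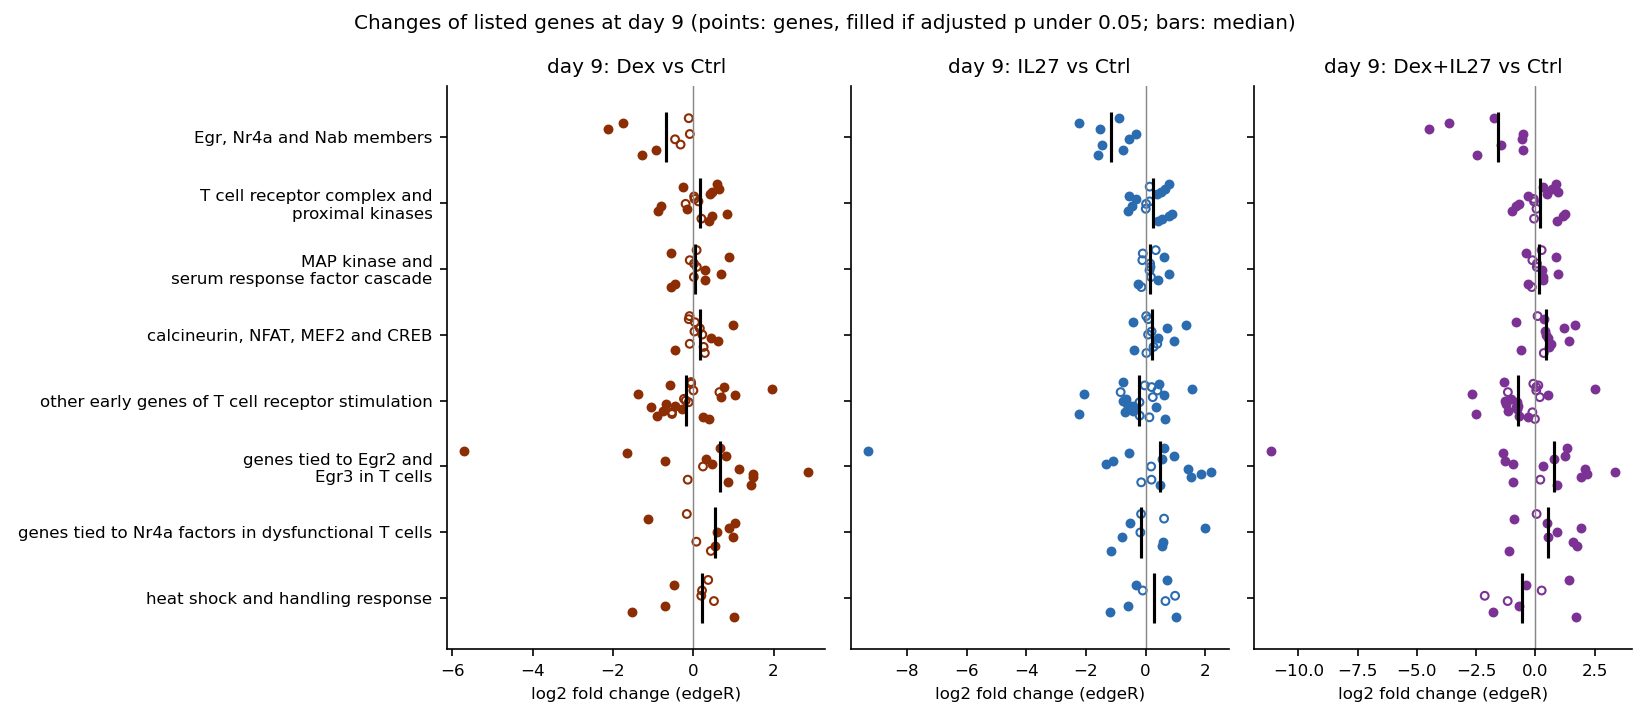
log2 fold changes from edgeR (horizontal axis) of the genes of 8 lists in the 3 day 9 comparisons against the shared Ctrl group; points are genes, filled where the adjusted p is under 0.05, and vertical bars are list medians. All 8 members lie left of 0 in each panel, with medians of -0.69, -1.17 and -1.58, while the receptor, MAP kinase and calcineurin lists straddle 0; the point far left is Ccl1, whose fitted change depends on the prior count.

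The genes most alike in pattern were found by the root mean square difference between centred profiles of log2(FPKM + 1) means over the 8 groups, among 10859 genes; this is a description over 8 groups that share libraries and depth. Egr1 lay nearest Tespa1 (0.12), a gene of receptor signalling, then Ptger4 and 2700029M09Rik. Egr2 lay nearest Grwd1 (0.16), Srrt and Gpatch4, and Egr3 nearest Gtpbp4, Wdr36 and Mrps18b. Nr4a1 lay nearest Id3 (0.24), Usp18 and Tox (0.26), the last a factor known from exhausted T cells. Nr4a3 was nearest Ms4a4c (0.25), then Nr4a1 itself (0.27), then Tnni1. Nr4a2 was nearest Cstf3, Traf5 and Gm6644, at 1.10 from Nr4a1. Nab1 was nearest Bcl2l12, Cdc14a and Zfp235, and Nab2 nearest Sept7, Slc35b4 and Pdcl. Flat profiles make small distances easy: the SD of the profile was 0.15 for Nab1, 0.22 for Nab2, 0.31 for Nr4a2 and 0.34 for Egr3. Adding 1 to FPKM flattens Egr3 further, as its group means were only 0.05 to 1.39 FPKM. Among the members, Nab1 and Nab2 were the closest pair (0.12).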

How the data were processed

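RNA of 24 libraries was amplified by a modified SMART-Seq2 protocol, per the labels' protocols. The authors deposited RSEM expected counts per gene without normalization and FPKM values that were scaled by TMM, per the file names. The submitters' processing notes name TopHat, RSEM, DESeq and mm9, with no roles given. Genes carry the symbols of the deposited tables.

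Expected counts were rounded and tested with edgeR 4.0.16 (R 4.3.3; quasi-likelihood F-test, two-sided, TMM, filterByExpr with minimum count 10 and total 15, prior count 0.125), fitting all libraries of a day together, or all 24 for the difference between days. P-values were Benjamini-Hochberg adjusted over all genes tested (11967 at day 3, 12320 at day 9, 12666 in all), and under 0.05 counts as passing. The fits were tested on simulated data. All 8 members passed the low-count filter in every fit, Egr3 at day 9 only through the Ctrl and IL27 libraries. Reads were amplified and carry no molecular identifiers.

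The members and gene lists were chosen with earlier results of these data known. All members are named; other list genes are up to 4 per list and comparison with the lowest p among called genes (Ccl1 and the single cell type markers were named after their values were seen). Some list genes are not reported here by name. Alternatives were DESeq2 size factors, no low-count filter, the DESeq2 1.42.0 Wald test, limma 3.58.1 on log2 FPKM plus 1 or 0.1, a replicate block, other sets of libraries in the fit and each library left out; scaling by library totals and leaving out Rn45s were added after seeing the data. Of the 24 pairs of libraries within a group, none agreed within counting noise.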

Additional observations from a re-analysis of the deposited data

Results flagged for a closer look

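The following 3 effects of 1 agent differed between conditions by a test of the difference itself. The Dex by IL27 interaction at day 9 was -0.72 on the log2 scale for Egr1: Dex added to IL27 lowered it by 0.83, and Dex alone changed it by -0.11. For Nr4a2 the interaction was 1.15, with a change of -0.92 for Dex alone and 0.23 for Dex added to IL27. The Dex change of Egr2 at day 9 minus that at day 3 was -1.10, from changes of -1.75 and -0.61. Egr2 means with Dex were 2.50 FPKM at day 9 and 2.85 at day 3, against WT Ctrl means of 8.45 and 4.4. Of all genes tested, 28.5% passed the interaction, against 2 of 8 members. The difference between days passed in 39.6% of genes, against 1 of 8 members. The Egr1 call was lost in 4 of 22 alternatives and the Egr2 call in 10 of 21, while Nr4a2 passed in all 22.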

How the results depend on the processing

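Of the members' log2 changes recomputed under each alternative, 1594 of 1727 stayed on the same side of the threshold (64 of these changed sign, with neither value passing), 63 came to pass and 70 no longer passed; 0 called changes reversed. With Dex in WT cells at day 3 (1 member called), 5 were called without the low-count filter, 2 by DESeq2, 0 in the fit of all 24 libraries, 4 with only the 2 groups, 2 by library totals and 0 to 1 with a library left out. The genotype by Dex interaction (0) gave 4, 1 and 0 to 1 without the filter, by DESeq2 and with a library left out. For cKO Ctrl against WT Ctrl (0) the values were 3 without the filter, 1 by DESeq2, 1 by library totals and 0 to 1 with a library left out, and for cKO Dex against WT Dex (0) they were 1 without the filter, 1 with only the 2 groups and 0 to 2 with a library left out. At day 9, Dex+IL27 against Dex (6) gave 3 to 5 with a library left out. Dex+IL27 against IL27 (3) gave 1, and the Dex by IL27 interaction (2) gave 1, by limma on FPKM plus 1 without a filter; the interaction also gave 1 with all 24 libraries and 1 to 3 with a library left out. The Dex change at day 9 minus day 3 (1) gave 4 without the filter, 2 by DESeq2, 0 by limma on FPKM plus 0.1 and 0 to 2 with a library left out. The cause of these moves was not tested. Genes called over the whole table moved by over 1.5 times in the day 3 comparisons: the WT Dex count of 1129 was 691 to 1535 over the alternatives, the cKO Dex count of 0 was 0 to 26, the interaction count of 353 was 205 to 765, and the genotype counts of 283 (Ctrl) and 826 (Dex) were 49 to 793 and 484 to 1186. Of the shares of family sums, 24 of 48 moved by more than the SD between libraries when counts replaced FPKM, which sets aside gene length. Egr3 counts limit every statement on that gene.

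The same replicate numbers recur in the groups of a genotype. They were not taken to pair libraries: deviations from group means of same-numbered libraries correlated at -0.03 to 0 in WT at day 3, 0.02 to 0.14 in cKO and -0.16 to 0.26 at day 9, against -0.01 to 0.03, -0.11 to 0.05 and -0.25 to 0.18 for other pairs. In cKO the same-numbered pairs were all positive (median 0.08, against -0.05 for other pairs), so pairing there cannot be set aside. With the replicate number as a block, 5 members were called for Dex in WT cells at day 3, 3 in the genotype by Dex interaction and 3 in the difference between days, where Egr2 no longer passed and Egr1, Nr4a2 and Nr4a3 did. Over the alternatives, all genes called in these comparisons ranged from 691 to 1535, 205 to 765 and 4524 to 5109. The members' counts under a changed setting are therefore not read as particular to them. At day 9 the IL27 change of Nab1 no longer passed, and the change of Nr4a2 with Dex+IL27 against Dex passed.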
